A study of Homo sapiens with 12 samples.

Results

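Cell cycle genes were followed in HT1080 cells, a human fibrosarcoma line, as a set of 42 genes whose products start DNA replication or carry the cell through mitosis. The genes were given by symbol, and the rows of the gene count table whose Ensembl identifier maps to those symbols were taken. Each of the 42 symbols matched 1 of the 60669 identifiers in the table, and 42 of 42 were among the 16393 genes that passed the low-count filter. The rule used symbols and no measured value, though the list was drawn up with earlier results of these data known. By role they comprised 6 regulators of the step from G1 to S phase, 10 genes of origin licensing and replication, 3 of nucleotide supply, 8 of mitotic entry, 8 of the kinetochore, the spindle checkpoint and the anaphase-promoting complex (APC/C), 6 of the spindle and cytokinesis, and the proliferation marker MKI67.

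All cells stably expressed dCas9, the cleavage-deficient Cas9 of CRISPR interference, under blasticidin selection, and a guide RNA under puromycin selection. The guide was directed either against GFP, as the control, or against an LTR8B element, a retroviral long terminal repeat in the first intron of SP140. Cells with each guide were left untreated or received 10 U/mL interferon beta (IFNB) for 4 h, and polyA RNA was sequenced. The GFP guide has 2 libraries per treatment (groups GFP untreated and GFP IFNB) and the LTR8B guide has 4 (groups LTR8B untreated and LTR8B IFNB). The labels do not say whether a guide line was 1 clone or whether replicates were separate cultures, so a p-value reflects the spread among these libraries, which may be technical. Whether the 2 guides differ through SP140 or through anything else that separates the 2 lines cannot be told apart.

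As background, cells enter S phase when D- and E-type cyclins with their kinases release E2F factors from the retinoblastoma protein, and E2F then turns on genes for the MCM helicase, licensing factors and nucleotide synthesis. Genes needed for mitosis are held back by the DREAM complex, which binds a promoter element called the cell cycle genes homology region (CHR), and are switched on later by B-MYB and FOXM1. Type I interferon is known to slow the cycle of many cell types, often at the G1 to S step, and a treatment of a few hours is short against a whole cycle.

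SP140 itself, read as the check of the guide labels, had 30.8 and 29.8 CPM in GFP untreated and 32.0 and 29.8 in GFP IFNB libraries, against 0.515 to 1.84 in the 8 LTR8B libraries. CPM here means counts scaled to library size with edgeR's TMM factor. Averaged over both treatments the LTR8B guide changed SP140 by -4.61 log2 (SE 0.15, edgeR adjusted p = 1.40e-11). All 14 tested interferon-stimulated check genes were higher with IFNB in both lines, the least by 2.58 log2 in GFP and 2.42 in LTR8B cells. Libraries held 12404270 to 28801579 counts. Of 10 mesenchymal markers 8 had a mean of at least 1 CPM, against 0 of 8 epithelial, 0 of 8 haematopoietic and 2 of 5 endothelial markers (PECAM1 and VWF, with the 5 genes summing to 7.69 to 13.5 CPM per library).

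The promoters of the genes carry the sequence elements of the 2 programmes, and a few are shown as examples from the S phase and the mitotic genes. RefSeq promoters (GRCh38.p14, 250 bases before to 50 after the start) were matched by symbol for 31 of the 42 genes. They were searched on both strands for the E2F motif (spelled TTCCCGC or, in its variants, TTCGCGC, further TTGCCGC and lastly TTGGCGC), the CHR (TTTGAA or TTCGAA), the CCAAT box (CCAAT) and the interferon-stimulated response element. An E2F match stood in the promoter of 11 of 11 replication genes (licensing, replication and nucleotide supply, 100%), of 2 of 3 G1/S regulators and of 4 of 17 mitotic genes (23.5%), compared with 15.3% of the 27305 genes in the promoter table. A CHR match stood in 12 of 17 mitotic genes (70.6%) and 2 of 11 replication genes (18.2%), compared with 19.5% of all genes. The CCAAT box was found in 25 of 31 genes (80.6%, all genes 39.7%). The response element was found in 0 of 31 genes and in 4.38% of all genes. A gene with several promoter entries counted as matched if any entry held the motif, here and over all genes. RRM2, MCM7 and PCNA each also had an entry without an E2F match. These matches describe letters in a fixed window and show no binding.

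The 100 bases before the start of 7 promoters follow, read 5′ to 3′ along the gene's strand, with matched motif letters in capitals. In CDT1, MCM6 and CDC25A, which stand for the S phase genes, the capitals mark E2F matches and, in MCM6 and CDC25A, also CCAAT boxes read on the opposite strand. MCM6 also has a CHR match at position -246 from the start, outside the stretch shown.
CDT1 (chr16:88803689-88803788, plus strand): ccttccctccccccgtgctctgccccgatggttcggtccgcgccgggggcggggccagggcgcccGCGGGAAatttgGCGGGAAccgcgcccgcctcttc
MCM6 (chr2:135876444-135876543, minus strand): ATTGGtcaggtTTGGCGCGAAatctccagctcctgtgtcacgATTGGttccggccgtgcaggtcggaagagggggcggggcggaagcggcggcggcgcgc
CDC25A (chr3:48188418-48188517, minus strand): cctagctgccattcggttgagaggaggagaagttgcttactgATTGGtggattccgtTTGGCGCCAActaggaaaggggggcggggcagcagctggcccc
In PLK1, CCNB2 and MKI67, which stand for the mitotic genes, the capitals mark a CHR close to the start and CCAAT boxes, and in MKI67 1 CHR and 1 CCAAT box share letters.
PLK1 (chr16:23678789-23678888, plus strand): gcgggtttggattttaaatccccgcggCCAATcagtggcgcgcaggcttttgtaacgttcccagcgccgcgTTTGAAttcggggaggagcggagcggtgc
CCNB2 (chr15:59105046-59105145, plus strand): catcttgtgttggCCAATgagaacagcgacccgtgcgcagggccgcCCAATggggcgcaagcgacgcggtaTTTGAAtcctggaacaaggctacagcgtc
MKI67 (chr10:128126424-128126523, minus strand): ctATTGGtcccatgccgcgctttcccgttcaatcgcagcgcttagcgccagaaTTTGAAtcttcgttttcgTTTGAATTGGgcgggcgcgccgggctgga
CENPE is shown as a mitotic gene with none of the searched motifs. CCNE1, a G1/S regulator, also had none. The level of CENPE across libraries is described further on with that of KIF11, which has a CHR and a CCAAT box. A link between motifs and levels was not tested.
CENPE (chr4:103198344-103198443, minus strand): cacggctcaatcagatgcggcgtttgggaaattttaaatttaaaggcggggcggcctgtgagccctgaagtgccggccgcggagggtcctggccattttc

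The 42 genes were well expressed in every library. The lowest count of a member in any library was 117 and the highest 29508, and the 42 together took 0.559% to 0.631% of a library's counts. Levels between genes are compared per kilobase of merged exons (GENCODE 29). The highest per kilobase were CCND1, the D-type cyclin of G1, with a mean of 242 CPM per kb, PCNA, the sliding clamp of the replication fork, with 159, and TYMS, thymidylate synthase, with 109. The lowest were CENPE, the kinetochore motor, with 7.28, CCNE1, an E-type cyclin, with 4.67, and CDC25C, the phosphatase that activates CDK1, with 3.77. Across the 12 libraries the highest value of a gene was 1.15 times (AURKA) to 1.57 times (CCNE2) its lowest. The SD within groups ran from 0.0658 log2 (CCNB1) to 0.194 log2 (E2F1), with a median of 0.105.

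**Figure D1:**
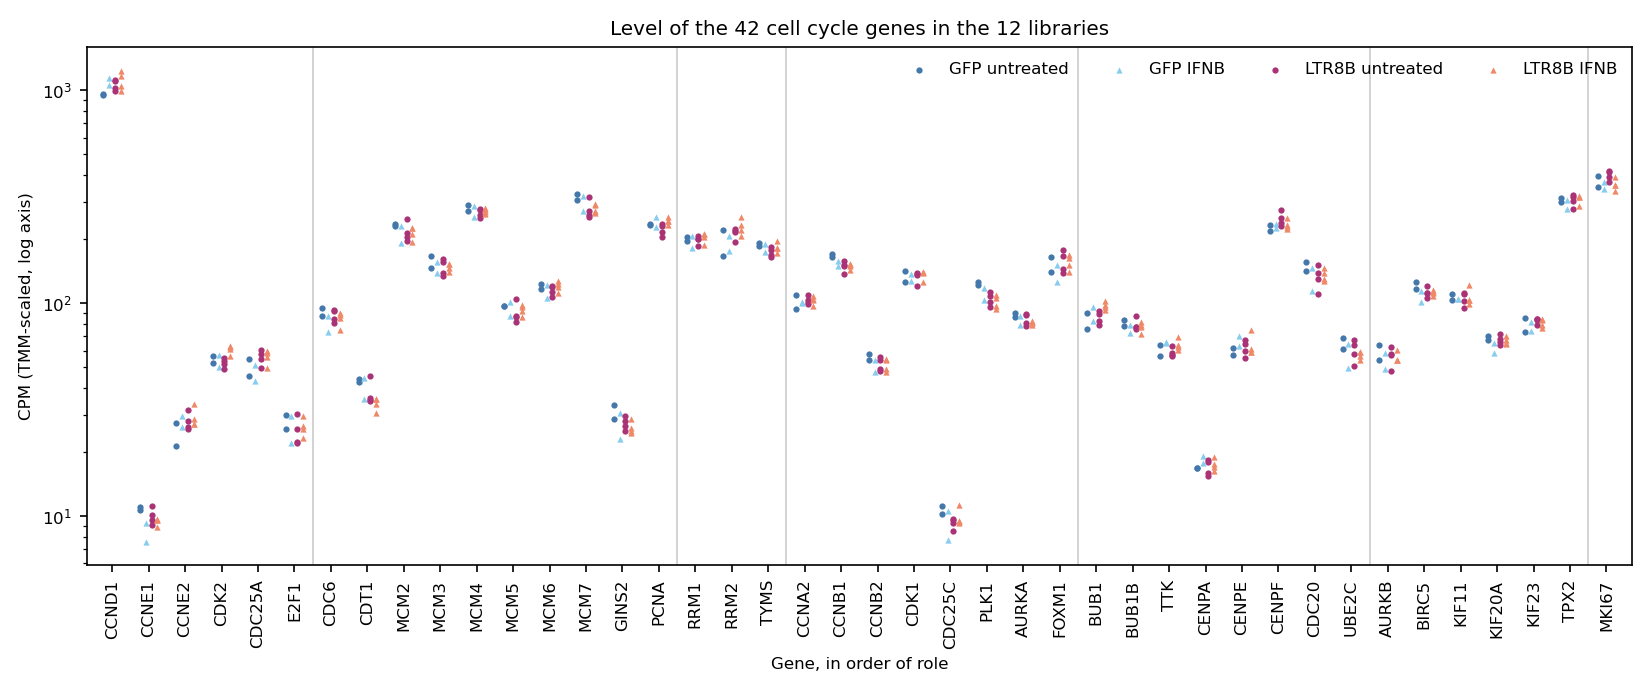
Level of each of the 42 genes in CPM (log axis, TMM-scaled) in the 12 libraries, ordered by role with lines between roles and coloured by group; each point is 1 library. The 4 groups overlie each other for nearly every gene, and the highest library of a gene was 1.15 to 1.57 times its lowest.

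No cell cycle gene passed the test between the LTR8B and the control guide. In untreated cells edgeR called 0 of 42 members, compared with 0.36% of all genes tested, and with IFNB 0 of 42, compared with 0.354%. In the average of both treatments it called 0 of 42, compared with 2.14% of all genes. DESeq2 and limma-voom also called 0 of 42 in these 3 comparisons. At an unadjusted p under 0.05 edgeR counted 3, 4 and 6 members, compared with 11.2%, 9.48% and 15.8% of all genes. The members' median log2 difference was -0.06 in untreated cells and 0.03 with IFNB, where the median over all genes was 0.0056 and -0.0046. The sign was negative for 30 of 42 members in untreated cells and positive for 31 of 42 with IFNB, and these comparisons share no library. Both medians turned with 1 GFP library left out: the first was 0.0038 without GFP untreated replicate 1, and the second -0.037 without GFP IFNB replicate 2 and 0.12 without GFP IFNB replicate 1. In each of the 3 comparisons the 95% intervals of 42 of 42 members lay within 1.5-fold of no difference, and in the average the farthest bound was 1.31-fold. In bulk RNA, fewer cells in a phase and less RNA per cell cannot be told apart.

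**Figure D2:**
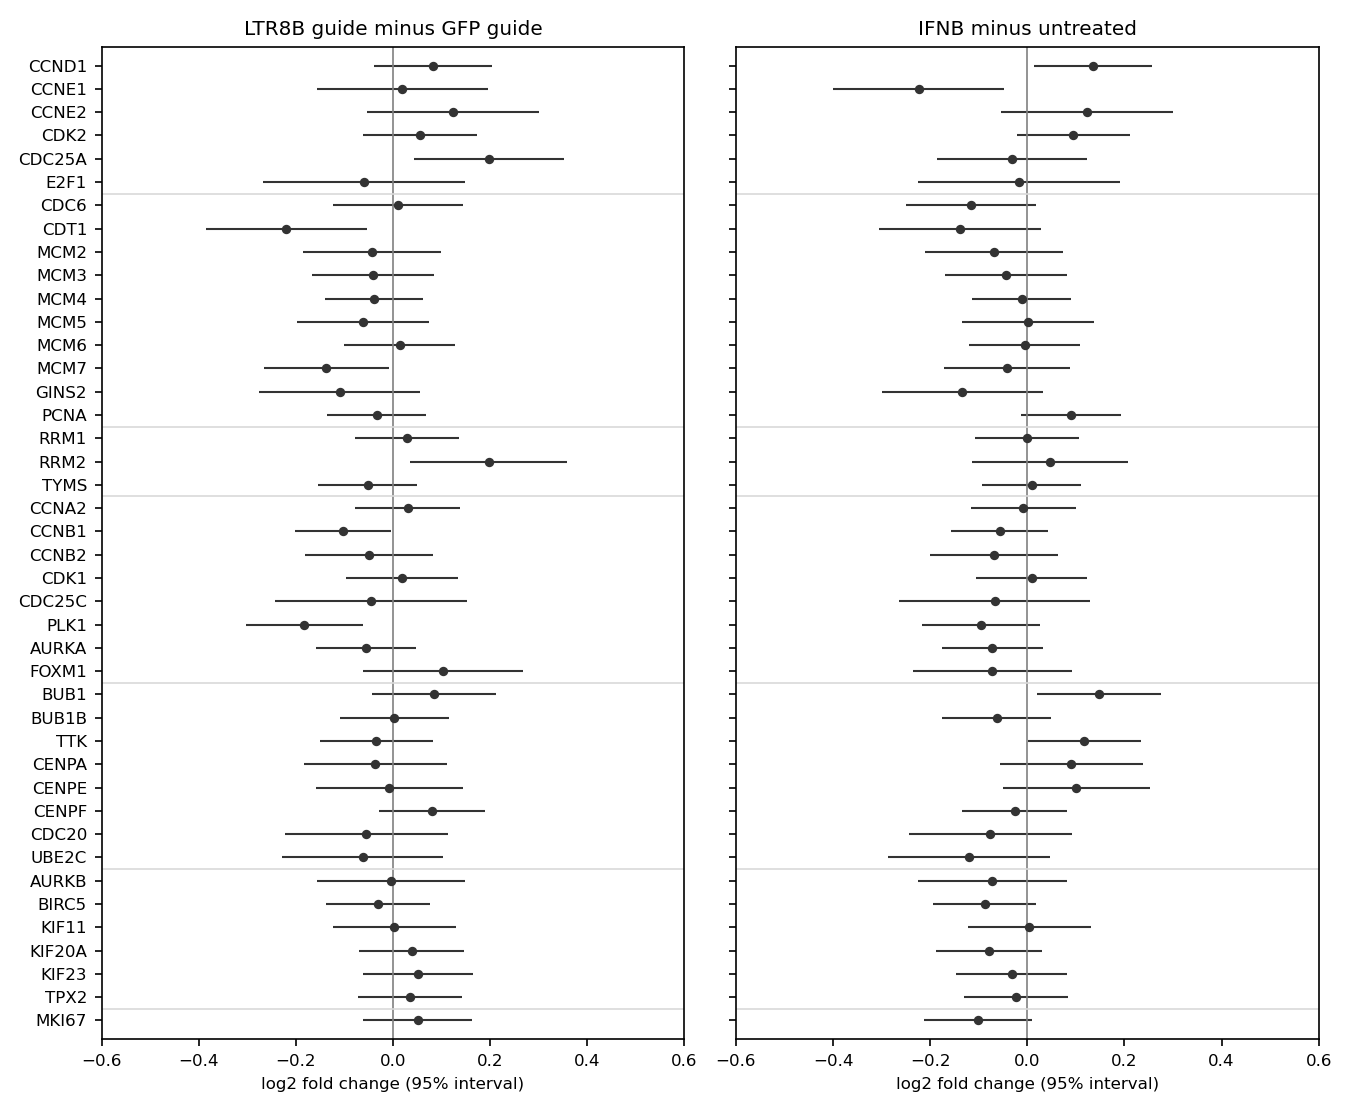
Log2 fold change of the 42 genes for the LTR8B guide minus the GFP guide (left, averaged over treatments) and for IFNB minus untreated (right, averaged over guides), with 95% intervals from the edgeR fit. Points lie between -0.22 and 0.20 on the left and between -0.22 and 0.15 on the right. No gene passed the adjusted threshold in this fit, which has no replicate terms.

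Among the G1/S regulators, CDC25A, the phosphatase that activates CDK2, had the clearest guide difference. CDC25A (ENSG00000164045.12, chromosome 3, 48157146 to 48188402 on hg38, minus strand) had 54.7 and 45.4 CPM in GFP untreated, 51.6 and 43.1 in GFP IFNB, 57.8, 60.1, 49.7 and 54.7 in LTR8B untreated and 58.6, 56.1, 49.8 and 59.9 in LTR8B IFNB libraries. The LTR8B libraries were mostly the higher ones, but the groups overlapped in both treatments. The average difference was 0.20 log2 (SE 0.073, edgeR adjusted p = 0.191). E2F1, the transcription factor upstream of much of S phase, had 29.8 and 25.7 CPM in GFP untreated, 29.4 and 22.1 in GFP IFNB, 25.7, 30.2, 22.1 and 22.3 in LTR8B untreated and 29.5, 26.7, 25.7 and 23.3 in LTR8B IFNB libraries. The guides overlapped in both treatments, and the difference averaged -0.060 log2 (95% interval -0.27 to 0.15). CCND1 (ENSG00000110092.4, chromosome 11, 69641087 to 69654474 on hg38, plus strand) had 958 and 954 CPM in GFP untreated, 1139 and 1057 in GFP IFNB, 1107, 1024, 988 and 1116 in LTR8B untreated and 1162, 1053, 996 and 1238 in LTR8B IFNB libraries. Here the 4 LTR8B untreated libraries lay above both GFP untreated ones, with a difference of 0.15 log2 (SE 0.082, edgeR adjusted p = 0.517), while the IFNB groups overlapped.

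CCND1 was the only member whose LTR8B untreated libraries all lay above the GFP untreated ones, and TYMS, CCNB1, CDC25C and PLK1 were the 4 whose libraries all lay below. Groups failed to overlap for 19.6% of all genes in that comparison, where 2 libraries stand against 4, so 5 of 42 is below that share. With IFNB no member separated the guides, compared with 19% of all genes, and none did so in the same direction in both treatments, compared with 5.6%.

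The licensing and replication genes had log2 differences of -0.05 to -0.20 between LTR8B and GFP untreated cells, and none passed the test. With IFNB 6 of the 10 differences were positive and 4 negative. CDT1 (ENSG00000167513.9, chromosome 16, 88803213 to 88809258 on hg38, plus strand), which loads the MCM helicase onto origins, had 43.95 and 42.7 CPM in GFP untreated, 44.4 and 35.6 in GFP IFNB, 36.1, 45.3, 35.1 and 34.9 in LTR8B untreated and 33.7, 35.4, 35.7 and 30.6 in LTR8B IFNB libraries. LTR8B untreated replicate 2 was the highest of all 12, and the other 7 LTR8B libraries, at 30.6 to 36.1 CPM, lay below 3 of the 4 GFP libraries. The average difference was -0.22 log2 (SE 0.078, edgeR adjusted p = 0.17). Without LTR8B untreated replicate 2 it was -0.27, and CDT1 then passed (edgeR adjusted p = 0.0347), where 2.8% of all genes were called.

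MCM7, a subunit of that helicase, had 327 and 306 CPM in GFP untreated, 318 and 271 in GFP IFNB, 271, 316, 255 and 259 in LTR8B untreated and 289, 292, 271 and 266 in LTR8B IFNB libraries and an average difference of -0.14 log2 (SE 0.061, edgeR adjusted p = 0.284). Here too LTR8B untreated replicate 2 was the highest library of its group and lay among the GFP libraries. The other helicase subunits, MCM2, MCM3, MCM4, MCM5 and MCM6, differed by -0.062 to 0.014 log2 in the average. CDC6, the partner of CDT1 in loading, differed by 0.011, and GINS2, of the active helicase, by -0.11. PCNA had 236 and 232 CPM in GFP untreated, 255 and 228 in GFP IFNB, 235, 231, 217 and 206 in LTR8B untreated and 254, 244, 242 and 234 in LTR8B IFNB libraries and an average guide difference of -0.033 log2 (95% interval -0.14 to 0.069). Its groups overlapped in both treatments.

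RRM2, the regulated subunit of ribonucleotide reductase, had 219.8 and 166 CPM in GFP untreated, 207 and 176 in GFP IFNB, 223, 216, 194 and 218 in LTR8B untreated and 221, 234, 206 and 254 in LTR8B IFNB libraries. The lowest library in each treatment was a GFP one, and the guides overlapped. The average difference was 0.20 log2 (SE 0.076, edgeR adjusted p = 0.216). With no low-count filter RRM2 passed (edgeR adjusted p = 0.0259), where 2.19% of all genes were called. The other subunit, RRM1, differed by 0.028 log2. TYMS had 192 and 185 CPM in GFP untreated, 189.8 and 174 in GFP IFNB, 185, 178, 166 and 169 in LTR8B untreated and 196, 182, 181 and 173 in LTR8B IFNB libraries and differed by -0.11 in untreated and 0.0098 in IFNB cells.

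PLK1 (ENSG00000166851.15, chromosome 16, 23677656 to 23690367 on hg38, plus strand), the kinase that drives mitotic entry and centrosome maturation, had the smallest p of all members in the average guide comparison. Its levels were 122 and 125 CPM in GFP untreated, 118 and 104 in GFP IFNB, 101, 113, 95.7 and 108 in LTR8B untreated and 106, 109, 97.4 and 94.3 in LTR8B IFNB libraries. The 2 GFP untreated libraries were the highest of all 12 and lay above the 4 LTR8B untreated ones, whereas the IFNB groups overlapped. PLK1 differed by -0.24 log2 in untreated cells (SE 0.081, edgeR adjusted p = 0.263), by -0.12 with IFNB and by -0.18 on average (95% interval -0.30 to -0.061, SE 0.057, edgeR adjusted p = 0.119).

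CCNB1, the cyclin partner of CDK1 in mitosis, had 170.3 and 164 CPM in GFP untreated, 158 and 149 in GFP IFNB, 159, 150.3, 137 and 151 in LTR8B untreated and 153, 153, 144 and 149 in LTR8B IFNB libraries. Both GFP untreated libraries exceeded every other library, and the guide difference was -0.17 log2 in untreated cells and -0.10 on average (SE 0.047, edgeR adjusted p = 0.298). CDK1 itself had 142 and 125 CPM in GFP untreated, 138 and 127 in GFP IFNB, 138, 136, 138 and 121 in LTR8B untreated and 141, 139.8, 139 and 126 in LTR8B IFNB libraries, with replicate 4 the lowest of both LTR8B groups and full overlap between guides. Its average difference was 0.018 log2 (95% interval -0.096 to 0.13). CDC25C had 11.1 and 10.2 CPM in GFP untreated, 10.5 and 7.71 in GFP IFNB, 9.59, 9.73, 8.54 and 9.31 in LTR8B untreated and 11.3, 9.25, 9.52 and 9.49 in LTR8B IFNB libraries, so that the LTR8B untreated libraries lay below the GFP untreated ones. With IFNB its GFP libraries enclosed 3 of the 4 LTR8B libraries, and the difference was -0.21 log2 untreated and 0.12 with IFNB. The 8 mitotic entry genes together spanned -0.18 to 0.10 log2 in the average.

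The genes of the kinetochore, the checkpoint and the APC/C differed between guides by -0.06 to 0.08 log2 in the average, and those of the spindle and cytokinesis by -0.03 to 0.05. This covered the checkpoint proteins BUB1, BUB1B and TTK, the centromeric histone CENPA, the kinetochore proteins CENPE and CENPF, the APC/C activator CDC20 and its ubiquitin-conjugating enzyme UBE2C. It also covered AURKB and BIRC5 of the chromosomal passenger complex, the motors KIF11, KIF20A and KIF23 and the spindle assembly factor TPX2. None of these 14 had an unadjusted p under 0.05 in any of the 3 guide comparisons. MKI67, which coats mitotic chromosomes and is absent from resting cells, had 396 and 353 CPM in GFP untreated, 373 and 343 in GFP IFNB, 390.2, 416, 373 and 411 in LTR8B untreated and 358, 392, 335 and 361 in LTR8B IFNB libraries. Its guides overlapped in both treatments, with an average difference of 0.051 log2 (95% interval -0.061 to 0.16).

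After 4 h of IFNB no cell cycle gene passed the test in either line in the fit without replicate terms. In that fit 3.2% of all genes passed in GFP, 4.5% in LTR8B cells and 6.29% in the average. With a term for each replicate number within a guide (replicate block by guide), edgeR called CDK2, BUB1 and MKI67 in LTR8B cells. In the average it then called CCND1 and BUB1. The blocked fit called 6.34% of all genes in LTR8B cells and 9.75% in the average. DESeq2 called 1 member, CDK2 in LTR8B cells, compared with 5% of all genes, and none in the other 2 comparisons. Limma-voom called none. At an unadjusted p under 0.05 edgeR counted 2, 4 and 4 of the 42, compared with 11.3%, 12.9% and 16.6% of all genes. The members' median was -0.08 log2 in GFP and 0.02 in LTR8B cells, and -0.03 on average, where the median over all genes was -0.0059, -0.01 and -0.01. In the average, the farthest bound of a 95% interval was 1.32-fold from no difference. In GFP cells, with 2 libraries a side, 41 of 42 intervals lay within 1.5-fold and the farthest bound, that of CCNE1, was 1.57-fold.

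The negative median in GFP cells depended on single libraries. It was -0.016 without GFP untreated replicate 1. GFP IFNB replicate 2 had the lowest share of counts in the 42 genes, 0.559%. Without it the members' median was 0.0017 log2, and without GFP IFNB replicate 1 it was -0.16. With all libraries 34 of 42 members were negative in GFP cells, among them 8 of 8 mitotic entry genes, 6 of 6 spindle genes and 9 of 10 licensing genes, and 5 of 8 kinetochore genes were positive. In LTR8B cells, where 4 libraries stand on each side, 24 of 42 were positive, and the median was -0.02 without LTR8B untreated replicate 3 and -0.0047 without LTR8B IFNB replicate 2. The average median was 0.0033 without GFP untreated replicate 1 and 0.0076 without GFP IFNB replicate 2.

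CDK2 (ENSG00000123374.11, chromosome 12, 55966769 to 55972784 on hg38, plus strand), the kinase that pairs with E-type cyclins, came nearest to the threshold in the edgeR fit without replicate terms. It had 56.7 and 52.5 CPM in GFP untreated, 57.5 and 50.2 in GFP IFNB, 53.3, 55.2, 49.4 and 51.8 in LTR8B untreated and 60.8, 62.7, 56.3 and 62.7 in LTR8B IFNB libraries. Each LTR8B IFNB library lay above each LTR8B untreated one, and the GFP groups overlapped. CDK2 differed by 0.21 log2 in LTR8B cells (95% interval 0.077 to 0.35, SE 0.064, edgeR adjusted p = 0.0817) and by -0.022 in GFP cells. DESeq2 gave it an adjusted p of 0.0422 in LTR8B cells and called 5% of all genes there. CCNE1 had 11.00 and 10.7 CPM in GFP untreated, 9.30 and 7.61 in GFP IFNB, 11.2, 9.58, 9.14 and 10.2 in LTR8B untreated and 8.88, 9.57, 9.60 and 9.70 in LTR8B IFNB libraries. Both GFP IFNB libraries lay below both GFP untreated ones, and the LTR8B groups overlapped. The difference was -0.36 log2 in GFP cells (SE 0.14, edgeR adjusted p = 0.262), -0.086 in LTR8B cells and -0.22 on average (SE 0.083, edgeR adjusted p = 0.154). The other E-type cyclin, CCNE2, differed by 0.12 on average (95% interval -0.054 to 0.30).

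CCND1, whose values are given with the guide comparison, was higher in both GFP IFNB than in both GFP untreated libraries, by 0.20 log2 (SE 0.094, edgeR adjusted p = 0.44). In LTR8B cells the groups overlapped, with a difference of 0.072, and the average was 0.14 (SE 0.057, edgeR adjusted p = 0.229). PCNA differed by 0.089 log2 on average (SE 0.049, edgeR adjusted p = 0.392) and E2F1 by -0.018 (95% interval -0.23 to 0.19). CDT1 differed by -0.14 and PLK1 by -0.096, neither past the test.

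BUB1 (ENSG00000169679.15, chromosome 2, 110637698 to 110678114 on hg38, minus strand), the checkpoint kinase at unattached kinetochores, had 90.3 and 76.1 CPM in GFP untreated, 96.1 and 82.8 in GFP IFNB, 89.3, 82.5, 79.3 and 91.5 in LTR8B untreated and 96.5, 98.6, 93.3 and 103 in LTR8B IFNB libraries. All 4 LTR8B IFNB libraries exceeded the 4 untreated ones, and the GFP groups overlapped. The difference was 0.19 log2 in LTR8B cells (SE 0.070, edgeR adjusted p = 0.186) and 0.15 on average (SE 0.060, edgeR adjusted p = 0.205). TTK, the kinase upstream of it, had 64.02 and 56.6 CPM in GFP untreated, 65.6 and 65.3 in GFP IFNB, 57.3, 56.7, 58.5 and 63.3 in LTR8B untreated and 62.00, 60.6, 63.5 and 69.8 in LTR8B IFNB libraries, with overlap in LTR8B cells and both IFNB libraries above both untreated ones in GFP cells. Its average difference was 0.12 log2 (SE 0.055, edgeR adjusted p = 0.292). MKI67 differed with IFNB on average by -0.10 log2 (SE 0.053, edgeR adjusted p = 0.37), with overlapping groups in both lines. Each of its IFNB libraries lay below the untreated library of the same line and replicate number. With the replicate block by guide MKI67 passed in LTR8B cells (-0.14 log2, edgeR adjusted p = 0.0383). BUB1, TTK and CCND1 were higher with IFNB in every such pair. How often the other members or all genes keep the same direction over these pairs was not counted. Nothing can therefore be read from this agreement for the named genes. The labels also do not say whether a replicate number marks a shared batch. CDK1 differed by 0.0089 and CCNB1 by -0.057.

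In GFP cells 4 members (CCND1, TTK, CENPA and CENPE) had both IFNB libraries above both untreated ones, and 5 (CCNE1, CCNB1, PLK1, BIRC5 and KIF20A) had both below. That is 9 of 42, where 44.5% of all genes did not overlap with 2 libraries a side. In LTR8B cells CDK2 and BUB1 did not overlap, 2 of 42, compared with 9.12% of all genes. In no member were all 6 IFNB libraries above or below all 6 untreated libraries within both lines, compared with 6.61% of all genes.

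No member passed the test of a difference between guides in the response to IFNB, and edgeR called 0% of all genes in this interaction. DESeq2 and limma-voom called 0 of 42. At an unadjusted p under 0.05 edgeR counted 1 member, CDK2, compared with 2.98% of all genes. CDK2 responded 0.23 log2 more in LTR8B than in GFP cells (SE 0.11, edgeR adjusted p = 0.996), and CDC25C 0.32 more (SE 0.19, edgeR adjusted p = 0.996). The members' median interaction was 0.10 log2, with 34 of 42 positive. It was 0.0077 without GFP IFNB replicate 2 and 0.20 without GFP IFNB replicate 1. The intervals of 39 of 42 members lay within 1.5-fold of no difference, and the farthest bound was 1.64-fold.

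Within groups, most of the 42 genes stood high or low together from library to library. Each gene's log2 CPM was set against its group mean. Libraries of a group of 2 mirror each other in such deviations by construction. All 13 replication genes were above their group mean in GFP untreated replicate 1, in GFP IFNB replicate 1 and in LTR8B untreated replicate 2, by 0.06, 0.11 and 0.11 log2 on average. None of the 13 was in LTR8B untreated replicate 3, which averaged -0.10 and had the most counts of all libraries, 28801579. Of the 23 mitotic genes (MKI67 included) 4 were above their mean in that library, and 3 in LTR8B IFNB replicate 3, which also had the fewest counts, 12404270. LTR8B untreated replicate 4 had 2 of 13 replication genes but 15 of 23 mitotic genes above the mean. Among mesenchymal markers of at least 1 CPM, VIM, LGALS1 and CDH2 also had their lowest LTR8B untreated library in replicate 3. FN1, SPARC, COL1A1, COL5A1 and S100A4 had theirs in replicate 2 or 4. Whether the shared shifts are particular to cell cycle genes, and the part of sequencing depth, was not tested.

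**Figure D3:**
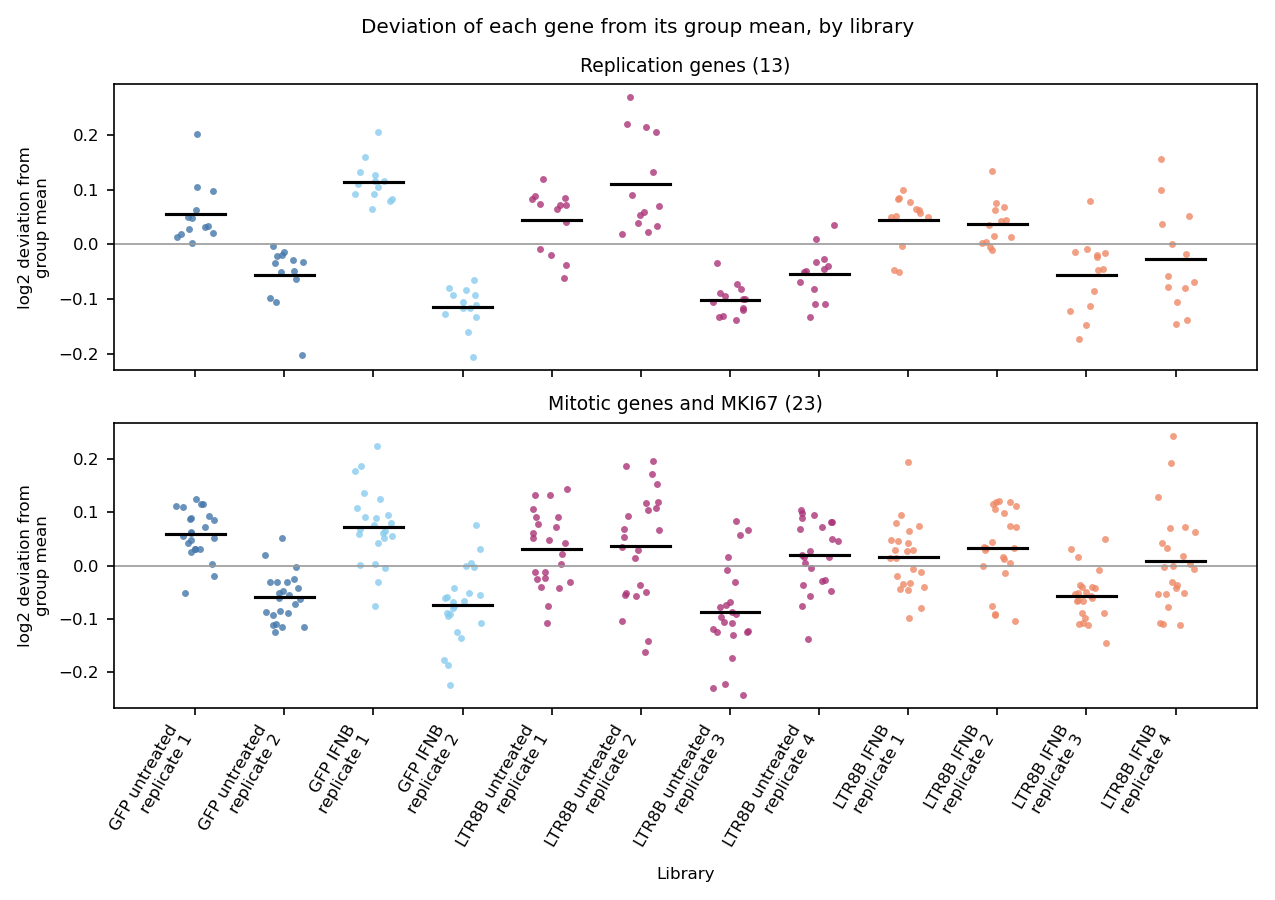
Deviation of each gene's log2 CPM from its group mean in each of the 12 libraries, for the 13 replication genes (top) and the 23 mitotic genes (bottom); points are genes, bars the mean over genes and colours the groups. The bars of the replication genes run from -0.11 in GFP IFNB replicate 2 to 0.11 in GFP IFNB replicate 1.

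Averaged as log2(CPM + 1), the replication genes stood at 7.14 ± 0.077 in GFP untreated (SD, n = 2), 7.06 ± 0.159 in GFP IFNB (n = 2), 7.05 ± 0.094 in LTR8B untreated (n = 4) and 7.07 ± 0.049 in LTR8B IFNB libraries (n = 4). The mitotic genes stood at 6.52 ± 0.083, 6.45 ± 0.101, 6.48 ± 0.058 and 6.48 ± 0.038 in the same order. The group means of each score differed by less than the SD of the widest group, GFP IFNB. That SD rests on 2 libraries and is a rough measure. The share of counts in mitochondrially encoded genes ran from 3.35% to 4.55% per library, and its part in these shifts was not tested.

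Over the 12 deviations, the median pairwise Pearson r was 0.69 among the 78 pairs of replication genes, 0.44 among the 253 pairs of mitotic genes and 0.56 among the 299 pairs between them. Over all 134357028 pairs of tested genes the median was -8e-04, with quartiles of -0.31 and 0.31. These correlations share the 12 libraries, their scaling and 4 group means, and are given as a description. The pairs of all tested genes include genes with low counts, and genes of like level to the members were not compared. MCM4 had the highest mean r with the replication genes, 0.82, followed by E2F1 with 0.79, although E2F1 is not one of them, and the mitotic genes UBE2C and CDC20 had 0.76 and 0.72.

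Only 3 of the 42 genes had a negative mean r with the replication genes. They were CENPE, at -0.33, and the mitotic motor KIF11 and TTK, at -0.16 and -0.15. CENPE had 61.6 and 57.1 CPM in GFP untreated, 63.2 and 70.1 in GFP IFNB, 67.5, 55.1, 64.5 and 60.01 in LTR8B untreated and 58.9, 59.1, 60.8 and 74.6 in LTR8B IFNB libraries. It was highest in LTR8B IFNB replicate 4 and GFP IFNB replicate 2, libraries in which the replication genes were mostly low. KIF11 was likewise highest in LTR8B IFNB replicate 4, at 122 CPM, where the other libraries had 94.9 to 112 CPM. Between themselves CENPE and KIF11 had r = 0.84, KIF11 and TTK 0.78, and CENPE and TTK 0.57, while KIF11 and CDK1 had -0.41. The merged exons of CENPE span 8615 bases. CENPF and MKI67, with 10343 and 12678, had a mean r of 0.09 and 0.57 with the replication genes, and the part of transcript length was not tested further.

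**Figure D4:**
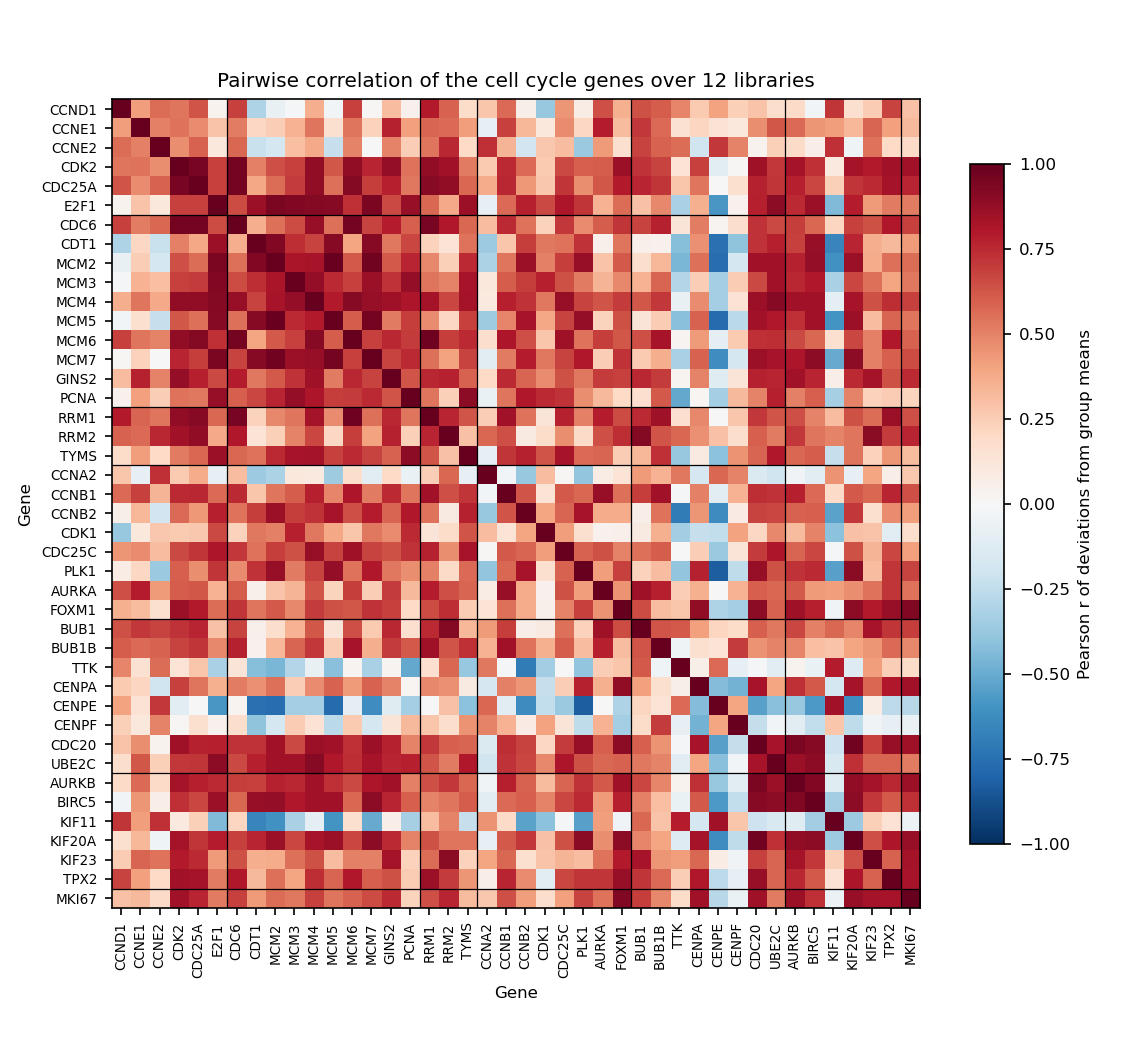
Pearson r between each pair of the 42 genes over the deviations of 12 libraries from their group means, in order of role with lines between roles (red positive, blue negative). The block of replication genes is mostly red, with a median of 0.69, and the rows of CENPE, KIF11 and TTK are pale or blue against it.

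Of 178 further cell cycle genes on fixed pathway lists, 173 were tested. With the LTR8B guide 1 of 173 was higher and 0 lower in each guide comparison, and the gene was ZWILCH each time, a subunit of the complex that brings dynein and checkpoint proteins to kinetochores. ZWILCH (ENSG00000174442.12, chromosome 15, 66504959 to 66550128 on hg38, plus strand) had 21.8 and 18.8 CPM in GFP untreated, 23.1 and 22.5 in GFP IFNB, 73.9, 72.6, 67.7 and 77.5 in LTR8B untreated and 74.5, 76.03, 67.9 and 85.3 in LTR8B IFNB libraries. All 8 LTR8B libraries lay above all 4 GFP libraries, and its average difference was 1.79 log2 (SE 0.070, edgeR adjusted p = 2.72e-11). No other gene on its list of 25 kinetochore and checkpoint genes passed in these comparisons, and the share called among all genes was 0.36%, 0.354% and 2.14%. The median of the 173 was 0.0030 log2 in the average guide comparison.

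With IFNB 3 of 173 rose and 1 fell in the average, where 6.29% of all genes were called. CCND3, a D-type cyclin like CCND1, had 30.3 and 26.1 CPM in GFP untreated, 41.6 and 35.9 in GFP IFNB, 25.04, 32.5, 25.5 and 28.2 in LTR8B untreated and 42.1, 41.1, 38.1 and 37.2 in LTR8B IFNB libraries. Each IFNB library of a line exceeded each untreated one, and CCND3 rose by 0.49 log2 (SE 0.076, edgeR adjusted p = 3.13e-04). In LTR8B cells alone it rose by 0.52 (SE 0.089, edgeR adjusted p = 0.00101), and in GFP cells it differed by 0.45 without passing (SE 0.12, edgeR adjusted p = 0.0595), though it passed there with DESeq2 (adjusted p = 0.0276). MYC, a transcription factor that promotes growth and G1 progression, had 99.1 and 108 CPM in GFP untreated, 77.6 and 75.1 in GFP IFNB, 98.5, 100.2, 88.4 and 114 in LTR8B untreated and 78.1, 76.03, 75.2 and 86.9 in LTR8B IFNB libraries. All IFNB libraries lay below all untreated ones in each line. MYC changed by -0.39 log2 on average (SE 0.063, edgeR adjusted p = 4.07e-04), by -0.34 in LTR8B cells (SE 0.073, edgeR adjusted p = 0.00752) and by -0.44 in GFP cells (SE 0.10, edgeR adjusted p = 0.0208). The GFP call was lost without any 1 of the 4 GFP libraries, with edgeR adjusted p from 0.0571 without GFP untreated replicate 1 to 0.253 without GFP untreated replicate 2, and 0.0805 and 0.183 without GFP IFNB replicates 1 and 2.

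BRCA2, a protein of homologous recombination and fork protection, had 32.2 and 29.6 CPM in GFP untreated, 43.96 and 61.6 in GFP IFNB, 40.4, 31.2, 38.1 and 34.4 in LTR8B untreated and 42.6, 40.03, 43.3 and 50.2 in LTR8B IFNB libraries. It rose by 0.77 log2 in GFP cells (SE 0.15, edgeR adjusted p = 0.00557) and by 0.53 on average (SE 0.092, edgeR adjusted p = 0.00119), and in LTR8B cells differed by 0.29 (SE 0.11, edgeR adjusted p = 0.215) with overlapping groups. With no low-count filter it passed in LTR8B cells (edgeR adjusted p = 0.00894). The GFP call was lost without GFP untreated replicate 2 (edgeR adjusted p = 0.0947) or GFP IFNB replicate 2 (0.138). ORC4, a subunit of the origin recognition complex, had 65.04 and 63.1 CPM in GFP untreated, 75.3 and 92.8 in GFP IFNB, 77.4, 60.5, 83.3 and 75.03 in LTR8B untreated and 80.7, 78.6, 78.7 and 86.6 in LTR8B IFNB libraries. It rose by 0.26 on average (SE 0.075, edgeR adjusted p = 0.0489), a call lost with RLE scaling (edgeR adjusted p = 0.0526), upper quartile scaling (0.108) and limma-voom (0.0662), and without any of 9 of the 12 libraries, up to an edgeR adjusted p of 0.344 without GFP IFNB replicate 2. BRCA2, ORC4 and CENPE shared their highest IFNB libraries, GFP IFNB replicate 2 and LTR8B IFNB replicate 4, and the part of these libraries in the average was not tested beyond leaving each out.

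**Figure D5:**
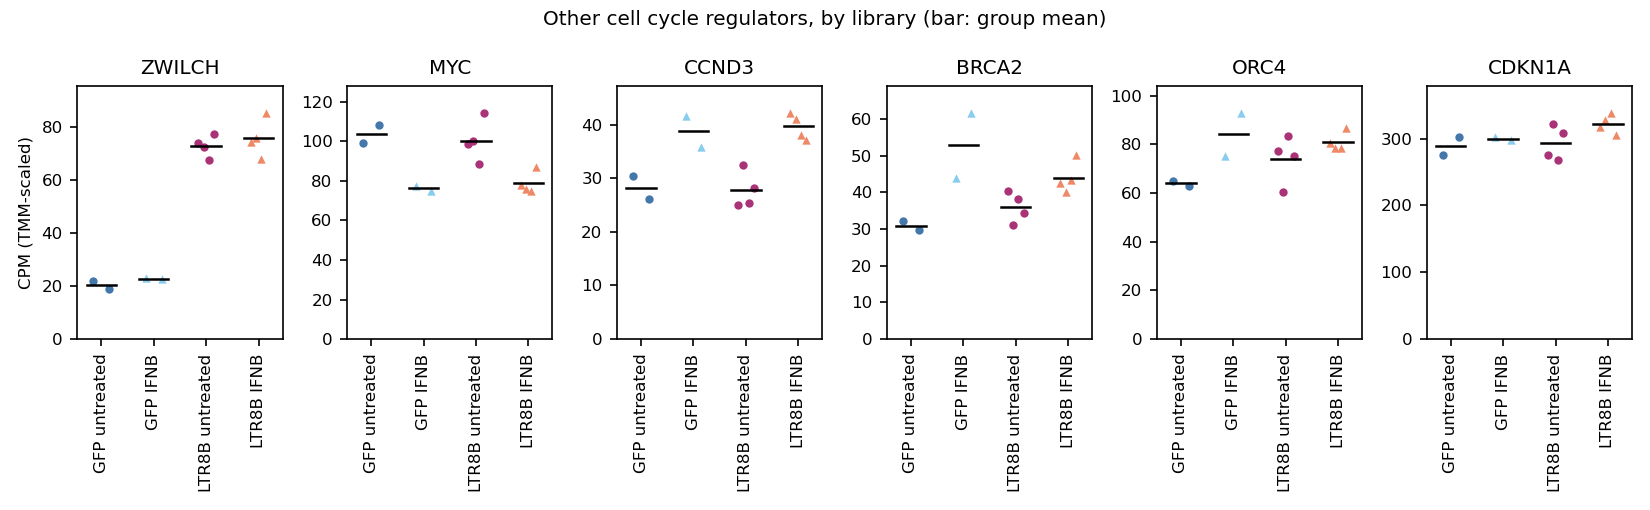
CPM (linear axis from 0, TMM-scaled) of 6 cell cycle regulators in each library of the 4 groups, with bars at group means. ZWILCH separates the guides (18.8 to 23.1 against 67.7 to 85.3 CPM), MYC and CCND3 separate IFNB from untreated libraries in each line, and CDKN1A overlaps between IFNB and untreated libraries in each line.

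The CDK inhibitors were not called in any comparison. CDKN1A, which encodes p21, the p53-induced inhibitor, had 275 and 302 CPM in GFP untreated, 302 and 297 in GFP IFNB, 276, 322, 269 and 309 in LTR8B untreated and 317, 328, 338 and 306 in LTR8B IFNB libraries. IFNB and untreated libraries overlapped in each line. With IFNB the 4 LTR8B libraries lay above both GFP ones, in a comparison where groups failed to overlap for 19% of all genes. It differed with IFNB by 0.095 log2 on average (95% interval -0.020 to 0.21) and between guides by 0.066. CDKN1B, which encodes p27, had 30.2 to 40.2 CPM over the libraries and differed with IFNB by 0.018 (95% interval -0.12 to 0.16). CDKN2A and CDKN2B, the INK4 inhibitors of the D-type cyclin kinases, had a count of 0 in all 12 libraries, which allows up to 3 counts or 0.100 to 0.244 CPM in a library. These 2, with CDKN1C, CCND2 and CCNA1, were the 5 listed genes left untested.

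By list, 2 of 173 pathway genes were called in GFP cells (BRCA2 and MYC), 2 in LTR8B cells (CCND3 and MYC) where 3.2% and 4.5% of all genes were, and 0 in the interaction, as over all genes. There 3 had an unadjusted p under 0.05, and DESeq2 and limma-voom also called 0. No gene was called in any comparison on the lists of mitotic kinesins and spindle (23 genes), cohesin, condensin and separase (19), APC/C and SCF ligase (20) or CDK inhibitors (5 tested), lists so short that the share over all genes, 0.354% to 6.29% outside the interaction, would itself give few calls or none. The median IFNB response of the 173 was -0.03 log2 in GFP, 0.02 in LTR8B cells and -0.01 on average.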

How the data were processed

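The authors deposited a table of whole-number counts per gene for the 12 libraries. Per the submitters' processing notes Salmon 0.13.1, DESeq2 1.38.3 and hg38 were used; their role and order, and whether counting used strand, are not given in the sources used here. Overlapping, antisense and near-identical genes may therefore share reads.

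The fit used edgeR 4.0.16 (R 4.3.3). The low-count filter was filterByExpr (minimum count 10, minimum total 15); TMM scaling and a robust quasi-likelihood model with 1 mean for each of the 4 groups and no covariate followed. Benjamini-Hochberg adjustment ran over the 16393 genes tested, at a threshold of 0.05. SE denotes the standard error of a log2 difference, and intervals are at 95%. The 7 contrasts were the guide effect and the IFNB response, each in 2 settings and averaged, and the interaction; guide and IFNB contrasts share libraries. The script was tested on simulated counts. Alternatives were RLE and upper quartile scaling, no low-count filter, DESeq2 1.42.0, limma-voom (limma 3.58.1), a fit of only the groups compared, replicate blocks and leaving out each library. Floors and intervals of counts cover counting error only. Gene positions and exon lengths came from GENCODE 29, promoters from RefSeq. Python 3.11.15, NumPy 2.4.6, pandas 2.3.3 and matplotlib 3.10.9 served for tables and figures. Replicates differed by a chi-square of 2.65 to 17.0 per degree of freedom, so none was a duplicate.

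Named with values were the 6 members with the smallest unadjusted p in each average effect, 2 in the interaction, MKI67, PCNA, CCND1, CDK1, CCNB1, E2F1, the 3 highest and 3 lowest per kilobase, and called pathway genes with CDKN1A, CDKN1B, CDKN2A, MYC and ZWILCH. Other genes were named after their values were seen. The members, lists and this rule were chosen with earlier results of these data known, and no list was tested as a set. A second deposited table, of normalized values, was not used here, since the counts fit the test.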

Additional observations from a re-analysis of the deposited data

Results flagged for a closer look

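In the 2 groups of 4 libraries, 108 series of values (the 42 genes, 8 other cell cycle genes and 4 library measures) were checked for a library that stood apart, by Dixon's ratio of the gap to the range at its 95% critical value. Chance marks about 1 in 20 groups, and 9 of the 108 were marked. In LTR8B untreated libraries CDT1 had 45.3 CPM in replicate 2, where the others had 34.9 to 36.1, CDK1 had 121 CPM in replicate 4, where the others had 136 to 138, and the mitotic score was 6.39 in replicate 3, against 6.496 to 6.513. In LTR8B IFNB libraries CDK1 again had its low value in replicate 4, 126 CPM against 139 to 141, and CENPE its high one, 74.6 CPM against 58.9 to 60.8. CCNE1 had 8.88 CPM in replicate 1, against 9.57 to 9.70, and CDC25C 11.3 CPM in the same library, against 9.25 to 9.52. AURKB had 60.4 CPM in replicate 2, against 54.0 to 54.3, and TPX2 286 CPM in replicate 3, against 315 to 319. No tested difference between the guides in the IFNB response met the threshold.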

How the results depend on the processing

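Across the 20 alternatives no called gene named in the text changed direction. The members' median, a value with no test, changed sign in 6 of 7 comparisons with 1 library left out, in the average guide comparison also with the replicate block (from -0.0056 to 0.038 log2) and in the LTR8B response with upper quartile scaling (-0.025). Their count of calls stayed at 0 in the guide comparisons within each treatment, in the GFP response and in the interaction. In the average guide comparison 1 member was called with no low-count filter (RRM2, all genes 2.19%). With 1 library left out 0 to 1 were called there (CDT1, without LTR8B untreated replicate 2, all genes 2.8%). In the LTR8B response DESeq2 called 1 member (CDK2, all genes 5%). With a library left out, the members' median ran from -0.16 to 0.0017 log2 in the GFP response, from -0.037 to 0.12 in the guide comparison with IFNB and from 0.0077 to 0.20 in the interaction. Pathway genes called were 4, 2, 3, 4 and 5 with no low-count filter in the guide comparison untreated, with IFNB and on average, in the GFP and in the LTR8B response, of 176 tested (all genes 0.918%, 0.735%, 2.19%, 1.91% and 2.62%). DESeq2 called 3 in the average guide comparison (all genes 3.6%), the fit of only the groups compared 4 in the GFP response (3.82%), and upper quartile scaling 7 in the average response (7.36%). With 1 library left out these counts were 1 to 2 in the untreated and 1 to 3 in the average guide comparison, and 0 to 3 in the GFP response. The cause was not tested.

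Replicate numbers are shared between groups, and the labels do not say whether a number marks a shared batch. The main fit did not pair libraries by number. Same-numbered LTR8B libraries had correlations of deviations from 0.03 to 0.14 over all genes, and the GFP ones 0.09. The replication genes deviated on average in the same direction in each same-numbered pair of LTR8B untreated and LTR8B IFNB libraries. These deviations were 0.044 and 0.045 log2 in replicate 1, and -0.10 and -0.056 in replicate 3. Of the 8 LTR8B libraries 7 correlated best with their own number. A replicate block by guide gave 3 members in the LTR8B response (CDK2, BUB1 and MKI67, edgeR adjusted p = 0.0163, 0.0181 and 0.0383) and 2 in the average response (CCND1 and BUB1, 0.0181 and 0.0261), where the same fit called 6.34% and 9.75% of all genes. It gave 6 of 173 pathway genes in the GFP response (all genes 4.56%) and 14 in the average. The replicate block without guide lost only ORC4 among the named genes (0.0721).

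Counts over all genes moved more, from 22 to 325 in the untreated guide comparison, 21 to 260 with IFNB, 93 to 775 on average and 0 to 13 in the interaction. Scaling moved the median of all genes by at most -0.05 log2. The lowest count of a member was 117, and the GFP groups have 2 libraries each.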
